A study of Mus musculus with 32 samples.

Results

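The genes described here are the 6 that encode 2 growth factor receptor systems of microglia: the receptor Csf1r with its ligands Csf1 and Il34, and the receptor chains Csf2ra, Csf2rb and Csf2rb2. The rule that picks them is their gene symbols, and each has 1 entry in each of the 3 deposited tables, that is 6 of 74021 in the LAG-3 sort table, 6 of 74016 in the stage table and 6 of 74021 in the spinal cord table. The 32 libraries were RNA-seq libraries of mouse lumbar spinal cord from a study of LAG-3, an inhibitory receptor, in SOD1G93A mice, which carry a mutant human SOD1 transgene and develop motor neuron disease.

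The sort experiment held CD11b+/CD45int microglia from P140 SOD1G93A mice, separated by surface LAG-3 into a LAG-3-low (n = 5) and a LAG-3-high (n = 5) fraction, and microglia from non-transgenic littermates (WT, n = 4), whose age the sources used here do not give. The stage experiment held CD11b+/CD45int microglia of SOD1G93A/LAG-3+/+ mice and of SOD1G93A/LAG-3-/- mice at P120 (age 120 days, early symptomatic) and P140 (age 140 days, late symptomatic), with 3 libraries in each of 4 groups. The cord experiment held whole lumbar spinal cord of SOD1G93A/LAG-3+/+ mice and of SOD1G93A/LAG-3-/- mice at P140, with 3 libraries each. Every mouse of the stage and cord experiments carried the SOD1G93A transgene, so neither experiment had a non-transgenic group. LAG-3-/- was a constitutive disruption of the gene, carried by all cells of the animal. The labels number the libraries but do not say that each came from a separate animal, so p-values measure the spread between libraries, which may be partly technical.

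Microglia depend on signals through CSF1R, a receptor tyrosine kinase, for survival and renewal, and CSF1 and IL-34 are its ligands. GM-CSF, the product of Csf2, acts through a binding alpha chain, CSF2RA, and a signalling beta common chain, CSF2RB, which the IL-3 and IL-5 receptors also use. Mice have an additional beta chain gene, Csf2rb2, whose product pairs with the IL-3 receptor alpha chain.

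Csf1 lies at chr3:107648364-107667806 on the minus strand, Il34 at chr8:111423928-111532584 on the minus strand and Csf2ra at chr19:61212395-61216892 on the minus strand of GRCm39. Csf2rb, at chr15:78209952-78238047 on the plus strand, and Csf2rb2, at chr15:78166707-78189921 on the minus strand, lie 20030 bases apart. All are protein-coding, with 9 exons in the longest annotated transcript of Csf1 and of Il34, 12 in that of Csf2ra, 15 in that of Csf2rb and 14 in that of Csf2rb2.

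The coding sequences of Csf2rb and Csf2rb2 were 95.2% identical over 2631 aligned bases, with a longest identical run of 242 bases. Of the 31-base words of the exons, 18.8% of those of Csf2rb and 28.6% of those of Csf2rb2 occur in both genes, so the estimated counts of the pair depend on how the authors' quantification shared such reads. The first 90 coding bases, read from GRCm39, are shown because they let a reader see how little separates the pair, with the 3 bases that differ in capitals:
Csf2rb: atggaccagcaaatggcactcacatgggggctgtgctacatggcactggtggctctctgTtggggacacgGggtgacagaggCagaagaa
Csf2rb2: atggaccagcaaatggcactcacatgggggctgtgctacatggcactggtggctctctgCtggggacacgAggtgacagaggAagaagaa

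Of the members with a promoter in the RefSeq table (GRCm38.p6, 250 bases before to 50 after the start), Csf1 and Csf2ra are shown because both rose in the sorted SOD1G93A microglia described below, and Csf2rb2 as the beta chain gene. The core letters GAGGAA of PU.1, a macrophage transcription factor, occur on either strand in 28.3% of 32851 promoters of this length, the RUNX letters TGTGGT in 16.8% and the STAT letters TTCNNNGAA in 8.3%. The Csf2ra promoter (chr19:61228369-61228668, minus strand) held 2 adjoining GAGGAA matches, at bases 237 to 242 and 243 to 248. The Csf2rb2 promoter (chr15:78305672-78305971, minus strand) held 2 GAGGAA matches, both on the opposite strand and therefore read as TTCCTC, at bases 84 to 89 and 280 to 285, and 1 STAT match at bases 236 to 244. The Csf1 promoter (chr3:107760420-107760719, minus strand) held none of these letters. Capitals mark the matches, none of which overlapped another:
Csf2ra: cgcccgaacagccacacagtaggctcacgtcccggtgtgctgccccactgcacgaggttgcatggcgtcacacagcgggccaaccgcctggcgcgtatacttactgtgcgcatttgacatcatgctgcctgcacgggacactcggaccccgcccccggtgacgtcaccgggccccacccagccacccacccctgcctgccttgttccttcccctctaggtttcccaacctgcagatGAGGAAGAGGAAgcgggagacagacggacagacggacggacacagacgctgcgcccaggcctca
Csf2rb2: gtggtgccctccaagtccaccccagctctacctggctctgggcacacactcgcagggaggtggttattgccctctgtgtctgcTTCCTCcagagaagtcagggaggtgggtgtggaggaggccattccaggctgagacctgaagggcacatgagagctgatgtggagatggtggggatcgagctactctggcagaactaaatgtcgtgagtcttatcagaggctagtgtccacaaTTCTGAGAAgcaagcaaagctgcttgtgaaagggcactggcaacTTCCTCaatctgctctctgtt
Csf1: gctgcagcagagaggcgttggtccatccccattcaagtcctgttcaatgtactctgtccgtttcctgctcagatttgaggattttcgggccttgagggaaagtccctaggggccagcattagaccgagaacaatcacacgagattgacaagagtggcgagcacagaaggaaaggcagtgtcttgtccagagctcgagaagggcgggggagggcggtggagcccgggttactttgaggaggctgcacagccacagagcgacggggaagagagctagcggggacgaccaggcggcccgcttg

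Total counts ran from 9403286 to 49512341 per library. Lag3 itself was 146 to 195 CPM (read counts relative to library size, TMM-scaled as all CPM here) in LAG-3-high, 34.8 to 57.8 CPM in LAG-3-low and 0.508 to 9.99 CPM in WT microglia, an order that the sort itself fixes between the fractions. It was 24.5 to 62.9 CPM in LAG-3+/+ and 0.0239 to 0.462 CPM in LAG-3-/- microglia of the stage experiment, and 43.4 to 74.5 against 5.50 to 5.72 CPM in cord, so every library matched its genotype label. Of 10 microglia marker genes 9 were in the tables, and their summed level was 13795 to 45601 CPM in the sorted libraries against 703 to 1237 CPM in cord. The sum of the neutrophil markers (Camp, S100a8 and others) was 5972 to 70511 CPM in WT, 22845 to 66378 CPM in LAG-3-low and 3.55 to 9.67 CPM in LAG-3-high libraries. In the stage experiment it was 1743 to 2576 CPM in P120 LAG-3+/+ and 2.81 to 6.58 CPM in P120 LAG-3-/- libraries, and ranged from 3.92 to 4618 CPM within the P140 groups. The 3 P140 LAG-3+/+ libraries held a count for 18896 to 20489 genes and P140 LAG-3-/- replicate 1 for 20260, fewer than the 23459 to 24942 of the other stage libraries.

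The ligand genes differed from each other. No Il34 read was counted in any of the 26 microglia libraries, where the limit that a count of 0 allows (3 counts) is 0.0555 to 0.261 CPM, covering counting error only. In whole cord Il34 was 10.2, 9.81 and 10.5 CPM in LAG-3+/+ and 8.52, 14.8 and 13.2 CPM in LAG-3-/- mice. Il34, which neurons are known to make, was thus counted in the tissue and not in the sorted cells. The ligands of the beta common chain and of the G-CSF receptor were nearly absent, as Csf2, Il3, Il5 and Csf3 had at most 3 counts in any library.

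Per kilobase of exon, Csf1r was the most abundant member in every group. In WT microglia its mean level was 635 CPM per kb (SD 254, n = 4), against 15.7 ± 13.9 for Csf2ra, 9.27 ± 5.36 for Csf2rb, 4.85 ± 4.10 for Csf2rb2 and 3.43 ± 6.79 for Csf1. In LAG-3-high microglia the order was Csf1r with 794 ± 37.3 CPM per kb (SD, n = 5), Csf2ra with 225 ± 13.8, Csf1 with 112 ± 19.8, Csf2rb with 20.2 ± 2.37 and Csf2rb2 with 6.25 ± 0.870. Below Csf1r, neighbours in the WT order lay within 1 SD of each other, and in LAG-3-high microglia no neighbours did. In LAG-3+/+ cord Csf1r stood at 42.0 ± 5.42 CPM per kb (SD, n = 3), Csf1 at 23.0 ± 3.07, Csf2ra at 10.4 ± 2.30, Il34 at 2.67 ± 0.0903, Csf2rb2 at 2.06 ± 0.490 and Csf2rb at 1.93 ± 0.557. The levels of Csf2rb and Csf2rb2 in cord did not differ beyond their spread.

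**Figure D1:**
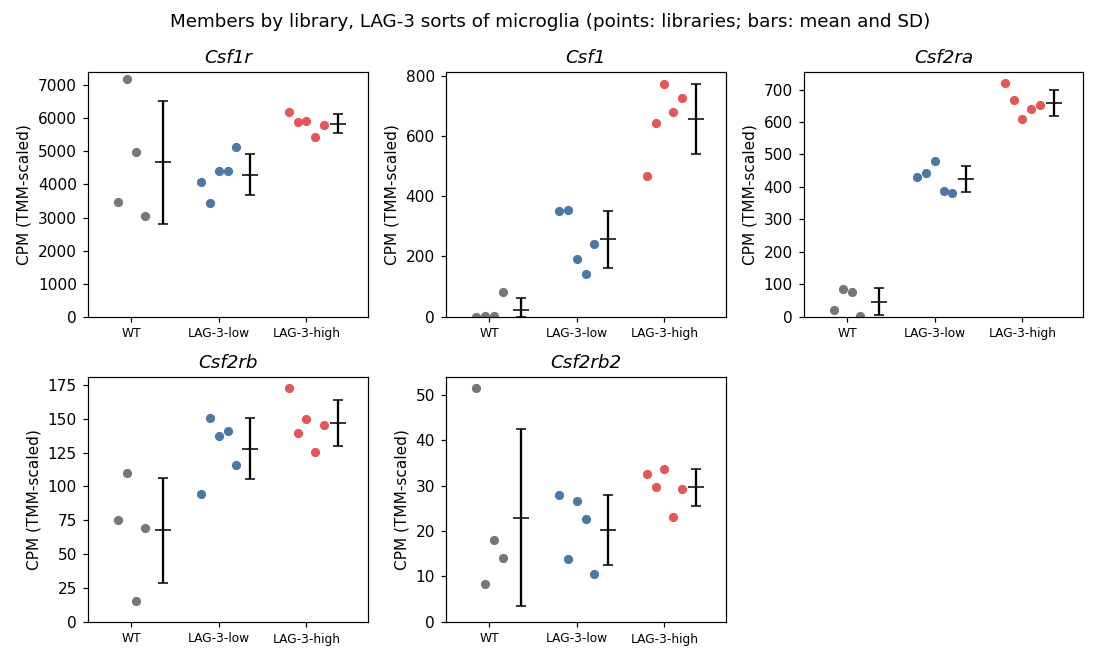
Level of each detected member in the 14 libraries of the sort experiment, in TMM-scaled CPM, with a point per library and bars for the group mean and SD. Csf1 lay at 0 to 0.436 CPM in 3 WT libraries and at 80.0 in the fourth, and at 141 CPM or more in all sorted SOD1G93A libraries, while Csf1r of WT overlapped both fractions.

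The sort experiment asked how microglia with much surface LAG-3 differ from those with little and from those of healthy mice. Csf1, the secreted ligand, was higher in both SOD1G93A fractions than in WT microglia. It was 0, 0.436, 0.226 and 80.0 CPM in WT libraries 1 to 4, 350.1, 355, 191, 141 and 242 CPM in LAG-3-low and 468, 642, 772, 678 and 727 CPM in LAG-3-high libraries. No group overlapped another, and WT replicate 4 stood far above the other WT libraries. By edgeR's quasi-likelihood test over all 14 libraries the log2 fold change was 3.66 ± 1.42 (SE, Benjamini-Hochberg adjusted p = 0.0891) for LAG-3-low and 5.03 ± 1.52 (adjusted p = 0.0308) for LAG-3-high against WT.

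WT replicate 4, which held a count for 17031 genes, the fewest of the sort libraries, set the size of these differences. Without it the log2 fold changes of Csf1 were 10.33 (adjusted p = 1.76e-06) and 11.69 (adjusted p = 3.49e-07), values which depend on the prior count because the remaining WT libraries had almost no reads. The LAG-3-low call was lost without any 1 other WT library or any 1 LAG-3-low library (adjusted p = 0.103 to 0.143). When transcript length and GC content were corrected for, the log2 fold changes were 1.39 (adjusted p = 0.487) and 2.78 (adjusted p = 0.176), so neither was called. Both calls were also lost with the compared groups alone (3.65, adjusted p = 0.237, and 4.97, adjusted p = 0.102) and with no filter on low counts (3.85, adjusted p = 0.225, and 5.22, adjusted p = 0.126).

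Between the fractions, Csf1 differed by 1.36 ± 1.18 on the log2 scale, which did not pass the test over the 14 libraries (adjusted p = 0.794). It passed when edgeR was fitted to the libraries of the fractions alone (1.28, adjusted p = 0.00305). With libraries scaled by totals alone, the difference over the 14 libraries was 0.99 (edgeR adjusted p = 0.810). The exact permutation test of the 5 against 5 values gave p = 0.00794 (two-sided), the smallest p that 252 arrangements allow. The labels do not say whether the fractions were sorted from the same animals. Every test between the fractions without a block, this one included, takes their libraries as independent. The neutrophil marker sum did not overlap between the fractions either, and with its share as a covariate the difference was 5.15 (adjusted p = 0.349).

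Csf2ra, the GM-CSF binding chain, rose in both fractions against WT. It was 19.9, 84.2, 76.9 and 2.54 CPM in WT, 432, 443, 479, 386 and 383 CPM in LAG-3-low and 719, 668, 609, 642 and 654 CPM in LAG-3-high libraries. The 3 groups did not overlap. The log2 fold change against WT was 3.21 ± 0.66 (SE, edgeR adjusted p = 0.00584) for LAG-3-low and 3.84 ± 0.68 (adjusted p = 0.00164) for LAG-3-high. Both kept direction and call in each of 23 alternatives, some of which could not change the log2 value. In edgeR and DESeq2 they ranged from 2.51 to 3.68 and from 3.29 to 4.32. The exact permutation test, which took differences in log2 CPM, gave 4.13 and 4.76. The sum of 4 monocyte markers was 42.1 to 133 CPM in WT, 283 to 995 CPM in LAG-3-low and 393 to 990 CPM in LAG-3-high libraries, with Vcan at 0 in WT and Ly6c2 and Vcan at 0 in LAG-3-high, and its part in the differences of Csf1 and Csf2ra was not tested. The sum of 4 endothelial markers separated the 3 groups in the order of Csf1 and Csf2ra (5.70 to 25.7 CPM in WT, 38.6 to 71.0 CPM in LAG-3-low and 73.6 to 111 CPM in LAG-3-high), with Cldn5 and Cdh5 at 0 in WT and LAG-3-high and Cdh5 at 0 in LAG-3-low. The sum of 5 astrocyte markers was 24.6 to 67.4 CPM in LAG-3-high, 2.14 to 12.9 CPM in LAG-3-low and 0 to 10.2 CPM in WT. The number of genes with a count also separated the 3 groups. It was 17031 to 20398 in WT, 20527 to 21263 in LAG-3-high and 21588 to 26852 in LAG-3-low libraries. The part of these lists and of this number was not tested either. The microglia markers summed lower in both fractions (13795 to 22347 CPM) than in WT (29986 to 34216 CPM).

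Between the fractions Csf2ra had a log2 difference of 0.63 ± 0.56 (edgeR adjusted p = 0.799 over 14 libraries). With libraries scaled by totals alone it was 0.26 (adjusted p = 0.927). With the fractions alone the difference was 0.56 (adjusted p = 0.000518), below the minimum change of 1 on the log2 scale that a call needed. The exact permutation p was 0.00794. Csf2ra thus lay higher in all LAG-3-high libraries by less than that minimum.

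The beta chains moved less. Csf2rb was 74.9, 110.1, 15.6 and 69.3 CPM in WT, 94.5, 151, 137, 141 and 116 CPM in LAG-3-low and 173, 139.6, 150.2, 126 and 146 CPM in LAG-3-high libraries. LAG-3-high values all lay above WT, and LAG-3-low values overlapped both other groups. Csf2rb was called for LAG-3-high against WT at 1.12 ± 0.38 (SE, edgeR adjusted p = 0.0509), while LAG-3-low against WT gave 0.92 ± 0.38 (adjusted p = 0.112) and LAG-3-high against LAG-3-low 0.20 ± 0.35 (adjusted p = 0.948). Without WT replicate 3, the lowest of its group, the LAG-3-high difference was 0.81 (adjusted p = 0.0206), below the minimum change. The call was also lost with totals only (0.80, adjusted p = 0.157) and with the compared groups alone (1.08, adjusted p = 0.151). Without WT replicate 2 the LAG-3-low difference was called (1.28, adjusted p = 0.0272). The LAG-3-high difference was -0.42 (adjusted p = 0.525) with correction for length and GC content.

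Csf2rb2 was 51.5, 8.37, 18.1 and 13.96 CPM in WT, 28.0, 13.8, 26.5, 22.6 and 10.6 CPM in LAG-3-low and 32.6, 29.6, 33.6, 23.1 and 29.2 CPM in LAG-3-high libraries. All 3 groups overlapped, and WT replicate 1 was the highest library of all. The log2 differences were -0.18 ± 0.49 for LAG-3-low against WT, 0.37 ± 0.49 for LAG-3-high against WT and 0.55 ± 0.46 for LAG-3-high against LAG-3-low (edgeR adjusted p = 0.837, 0.637 and 0.779), none of which passed. Without WT replicate 1 the LAG-3-high difference from WT was called (1.15, adjusted p = 0.0675), and with correction for length and GC content LAG-3-low was called lower than WT (-1.76, adjusted p = 0.0359). The share of Csf2rb2 in the summed counts of the pair ranged from 7.06 to 53.7% over the WT libraries, against 8.38 to 22.8% for LAG-3-low cells and 15.5 to 18.3% for LAG-3-high cells. Summed with Csf2rb, an alternative added after seeing the data, the pair differed by 0.96 (adjusted p = 0.0357) between LAG-3-high and WT, just below the minimum change. Il3ra, the IL-3 binding chain, had no count in any WT library. Its means of 5.89 CPM in LAG-3-low and 13.9 CPM in LAG-3-high were at least 22.5-fold and 53.2-fold higher than the highest WT limit of 3 counts per library.

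Csf1r, the receptor tyrosine kinase, was 3484, 7192, 4973 and 3055 CPM in WT, 4084, 3428, 4402, 4407 and 5141 CPM in LAG-3-low and 6196, 5889, 5914, 5434 and 5795 CPM in LAG-3-high libraries. Every LAG-3-high library lay above every LAG-3-low library, while WT spread across both. The difference of 0.45 ± 0.20 on the log2 scale between the fractions had an edgeR adjusted p of 0.382 over 14 libraries, against 0.37 (adjusted p = 0.00919) in the fractions alone, and the exact permutation p was 0.00794. With libraries scaled by totals alone, the difference over the 14 libraries was 0.064 (edgeR adjusted p = 0.966). The TMM factors were 0.830 to 0.915 in LAG-3-high and 1.07 to 1.17 in LAG-3-low libraries, so the separation of the fractions depended on the scaling. Against WT the log2 differences were -0.12 ± 0.21 (adjusted p = 0.733) for LAG-3-low and 0.32 ± 0.21 (adjusted p = 0.304) for LAG-3-high. With correction for length and GC content they were -1.42 (adjusted p = 0.000137) and -0.97 (adjusted p = 0.00122), so the place of Csf1r relative to WT depended on that setting. The gene lies at chr18:61229714-61266535 on the plus strand of GRCm39, with 22 exons in its longest transcript.

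Counted over the members, 5 of 6 passed the filter on low counts. Of these, 0 were called between the fractions by edgeR (1 at an unadjusted p under 0.05, 0 by DESeq2, which gave Csf1 no adjusted p), against 3.49% of all genes tested. Between the fractions 1988 of all 16508 genes had an unadjusted p under 0.05. Against WT, 2 of 5 were called in LAG-3-low, beside 21.9% of all genes, and 3 of 5 in LAG-3-high, beside 27.0%, and both comparisons share the WT libraries. Values did not overlap between the fractions for Csf1r, Csf1 and Csf2ra, against 15.5% of genes, and the exact permutation p was under 0.05 for 4 of 5 members, against 30.7% of genes. Against WT, values did not overlap for 2 of 5 members in LAG-3-low, beside 15.7% of genes, and for 3 of 5 in LAG-3-high, beside 20.9%, and the exact permutation p was under 0.05 for 3 of 5 in each, beside 30.3% and 35.4%. The median log2 difference of the members was 0.55 between the fractions, beside -0.02 for all genes.

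**Figure D2:**
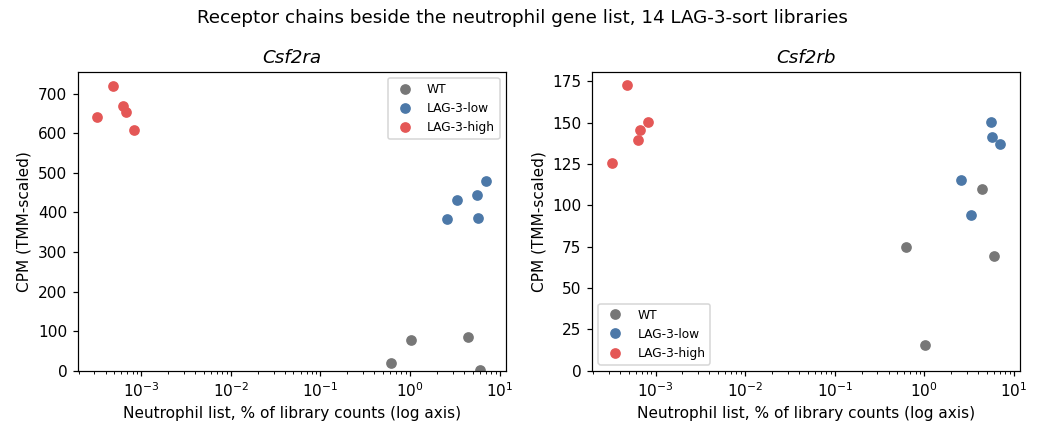
Level of Csf2ra and Csf2rb in TMM-scaled CPM against the share of library counts in the neutrophil markers, in percent on a log axis, with a point for each of the 14 sort libraries. LAG-3-high libraries, at 0.000324 to 0.000821%, stood apart from WT at 0.620 to 6.04% and LAG-3-low at 2.59 to 7.09%. Of the WT libraries, only replicates 2 and 4 (4.45 and 6.04%) lay within the LAG-3-low range.

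**Figure D3:**
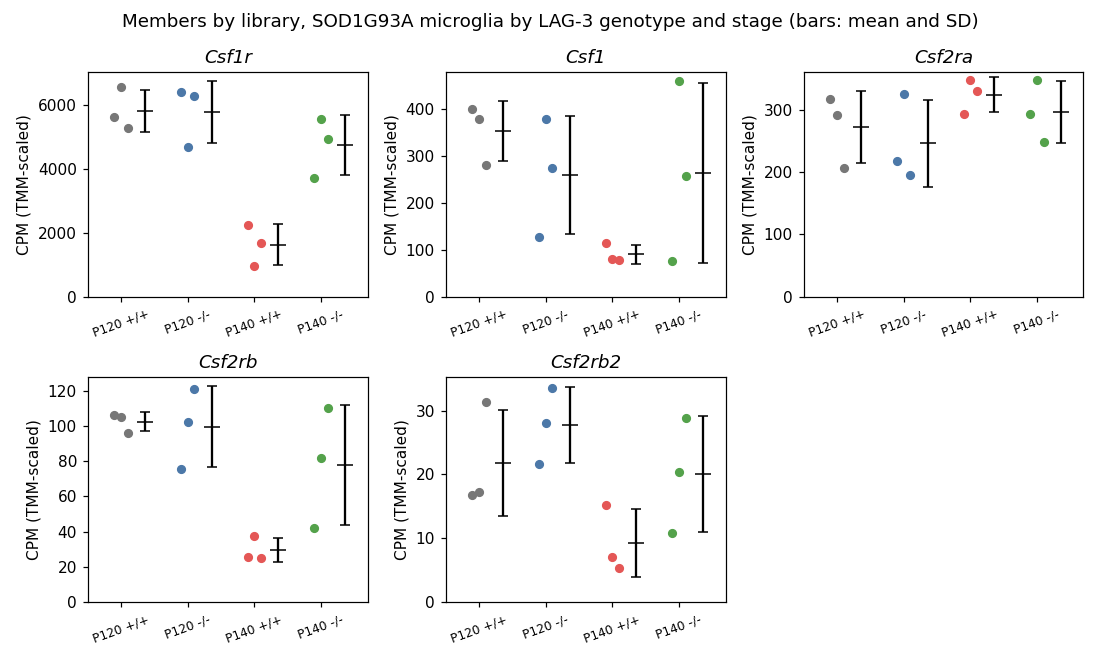
Level of each detected member in the 12 stage libraries, in TMM-scaled CPM, with a point per library and bars for the group mean and SD, where +/+ and -/- stand for the LAG-3 genotype. For Csf1r, Csf1 and Csf2rb the 3 P140 LAG-3+/+ libraries lay below the 3 P120 LAG-3+/+ libraries, and for Csf2ra all 4 groups overlapped.

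The stage experiment asked whether loss of LAG-3 changes microglia differently at P120 and P140. At P120 no member passed the test between genotypes. From P120 to P140, Csf1r, Csf1 and Csf2rb fell in LAG-3+/+ microglia, and at P140 Csf1r and Csf2rb were higher in LAG-3-/- than in LAG-3+/+ microglia. Csf2ra passed in none of these comparisons.

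Csf1r was 5635, 6561 and 5278 CPM in P120 LAG-3+/+, 6423, 4687 and 6280.1 CPM in P120 LAG-3-/-, 2258, 965 and 1674 CPM in P140 LAG-3+/+ and 3727, 5560.0 and 4959 CPM in P140 LAG-3-/- libraries. The P140 LAG-3+/+ values lay below those of all other groups. The fall from P120 in LAG-3+/+ was -1.84 ± 0.29 on the log2 scale (SE, edgeR adjusted p = 0.00552), which was -0.56 (adjusted p = 0.0923) with correction for length and GC content, and LAG-3-/- exceeded LAG-3+/+ at P140 by 1.54 ± 0.28 (adjusted p = 0.0282). At P120 the genotypes differed by -0.01 ± 0.28 (adjusted p = 1), and LAG-3-/- microglia differed by -0.29 ± 0.28 between stages (adjusted p = 0.864). The genotype difference at P140 was no longer called without LAG-3-/- replicate 2 (1.37, adjusted p = 0.124), with correction for length and GC content (0.63, adjusted p = 0.119) or with the P140 libraries alone (1.54, adjusted p = 0.207).

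Csf2rb showed the same order of P140 LAG-3+/+ below the rest. It was 106, 105 and 96.2 CPM in P120 LAG-3+/+, 75.2, 102 and 121 CPM in P120 LAG-3-/-, 25.6, 37.4 and 25.2 CPM in P140 LAG-3+/+ and 42.1, 81.5 and 110.1 CPM in P140 LAG-3-/- libraries. The P140 LAG-3+/+ libraries were again the lowest of the 12. The log2 fold change from P120 to P140 in LAG-3+/+ was -1.80 ± 0.33 (SE, edgeR adjusted p = 0.00715), and that of LAG-3-/- over LAG-3+/+ at P140 was 1.41 ± 0.33 (adjusted p = 0.0434). The latter was not called without LAG-3+/+ replicate 3 (1.31, adjusted p = 0.120), LAG-3-/- replicate 2 (1.32, adjusted p = 0.166) or LAG-3-/- replicate 3 (1.08, adjusted p = 0.167), nor with the P140 libraries alone (1.41, adjusted p = 0.225) or with sex read from transcripts (1.33, adjusted p = 0.106). With correction for length and GC content the genotype difference was 0.56 (adjusted p = 0.307) and the fall with stage -0.77 (adjusted p = 0.108).

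Csf2rb2 was 16.8, 17.2 and 31.4 CPM in P120 LAG-3+/+, 21.7, 28.1 and 33.6 CPM in P120 LAG-3-/-, 15.3, 7.05 and 5.38 CPM in P140 LAG-3+/+ and 10.8, 20.4 and 28.9 CPM in P140 LAG-3-/- libraries. P140 and P120 did not overlap in LAG-3+/+, but the genotypes overlapped at P140. The log2 differences were -1.24 ± 0.49 for stage in LAG-3+/+ (edgeR adjusted p = 0.101) and 1.12 ± 0.49 for genotype at P140 (adjusted p = 0.193), neither of which passed. The stage difference passed without P140 LAG-3+/+ replicate 1 (-1.81, adjusted p = 0.0314), in DESeq2 (-1.13, adjusted p = 0.0648), with totals only (-1.71, adjusted p = 0.0587), with a mean count of at least 10 (adjusted p = 0.0986) and with listed sex (adjusted p = 0.0951). The genotype difference passed without LAG-3+/+ replicate 1 (1.69, adjusted p = 0.0706) and without LAG-3-/- replicate 1 (1.42, adjusted p = 0.0806). The summed pair differed by -1.68 (adjusted p = 0.00786) and 1.34 (adjusted p = 0.0451) in these comparisons. Csf2rb2 made up 13.7 to 37.4% of the summed counts of the pair in the stage libraries and 38.1 to 44.6% in cord.

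Csf1 was 399, 379 and 281 CPM in P120 LAG-3+/+, 127, 378 and 274 CPM in P120 LAG-3-/-, 114, 80.1 and 77.6 CPM in P140 LAG-3+/+ and 77.0, 459 and 256 CPM in P140 LAG-3-/- libraries. It fell with stage in LAG-3+/+ without overlap, with a log2 fold change of -1.96 ± 0.55 (SE, edgeR adjusted p = 0.0306) that was -1.24 (adjusted p = 0.1001) and not called with correction for length and GC content. In both LAG-3-/- groups replicate 1 was the lowest library, and at P140 it lay below all LAG-3+/+ values. The genotype difference at P140 was 1.54 ± 0.54 (adjusted p = 0.120), with 1.99 (adjusted p = 0.0114) without LAG-3-/- replicate 1 and 0.82 (adjusted p = 0.428) without LAG-3-/- replicate 2. It was called by DESeq2 (1.45, adjusted p = 0.0359) and with totals only (1.897, adjusted p = 0.0764).

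Csf2ra was 317, 292 and 207 CPM in P120 LAG-3+/+, 218, 326 and 195 CPM in P120 LAG-3-/-, 293, 348 and 330.4 CPM in P140 LAG-3+/+ and 293, 347 and 249 CPM in P140 LAG-3-/- libraries. All groups overlapped. The log2 difference from P120 to P140 in LAG-3+/+ was 0.25 ± 0.23 (SE, edgeR adjusted p = 0.492), and that between genotypes at P140 was -0.13 ± 0.23 (adjusted p = 0.794). With libraries scaled by totals alone they were -0.24 and 0.19, and with correction for length and GC content the former was 0.63 (adjusted p = 0.0892), which passed.

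Across the members, 0 of 5 were called between genotypes at P120 (edgeR, 0 at an unadjusted p under 0.05, 0 by DESeq2), against 0.0107% of all genes, and 2 of 5 at P140, against 10.2%. At P120, 551 of all 18669 genes had an unadjusted p under 0.05. From P120 to P140, 3 of 5 were called in LAG-3+/+, against 27.4% of all genes, and 0 of 5 in LAG-3-/- (0 at an unadjusted p under 0.05, 0 by DESeq2), where edgeR called 0% of all genes. In that last comparison 1658 genes had an unadjusted p under 0.05 and DESeq2 called 449. These comparisons share groups. The median of all genes was itself -0.22 on the log2 scale with stage in LAG-3+/+ and 0.14 with genotype at P140, beside -1.80 and 1.41 for the members. Values did not overlap for 4 members with stage in LAG-3+/+, against 42.2% of genes, and for 2 with genotype at P140, against 21.1%.

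The interaction tests whether the stage changes differed between genotypes. Its log2 estimates were 1.55 ± 0.40 for Csf1r (SE, edgeR adjusted p = 0.185), 1.99 ± 0.76 for Csf1 (adjusted p = 0.292), 1.45 ± 0.46 for Csf2rb (adjusted p = 0.233), 0.76 ± 0.68 for Csf2rb2 (adjusted p = 0.667) and 0.02 ± 0.33 for Csf2ra (adjusted p = 0.998). None was called, against 0.171% of all genes, although 3 members had an unadjusted p under 0.05, beside 2541 of all 18669 genes tested. DESeq2 called Csf1r (1.45, adjusted p = 0.0161) and Csf2rb (1.32, adjusted p = 0.0929). Its calls over all genes are counted below. Without P140 LAG-3-/- replicate 1, the library with fewer genes detected, edgeR called Csf1r (1.70, adjusted p = 0.0438), Csf1 (2.43, adjusted p = 0.0413) and Csf2rb (1.75, adjusted p = 0.0244), and without P140 LAG-3+/+ replicate 1 it called Csf1r (1.86, adjusted p = 0.0633). The number of genes detected separated the 3 P140 LAG-3+/+ libraries from the P120 libraries without overlap, as Csf1r, Csf1 and Csf2rb did, and its part in these differences was not tested. The microglia marker sum was higher in P140 LAG-3+/+ (36658 to 45601 CPM) than in P120 LAG-3+/+ libraries (22437 to 24990 CPM). The monocyte sum was lower (32.4 to 56.5 against 73.6 to 131 CPM), with 61.6 to 415 CPM in P140 LAG-3-/-. The oligodendrocyte and endothelial sums were higher in P140 than in P120 LAG-3+/+ libraries (80.0 to 94.6 against 47.0 to 73.7 CPM, and 56.3 to 77.0 against 43.2 to 55.6 CPM). The part of these marker sums in the members' differences was not tested.

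**Figure D4:**
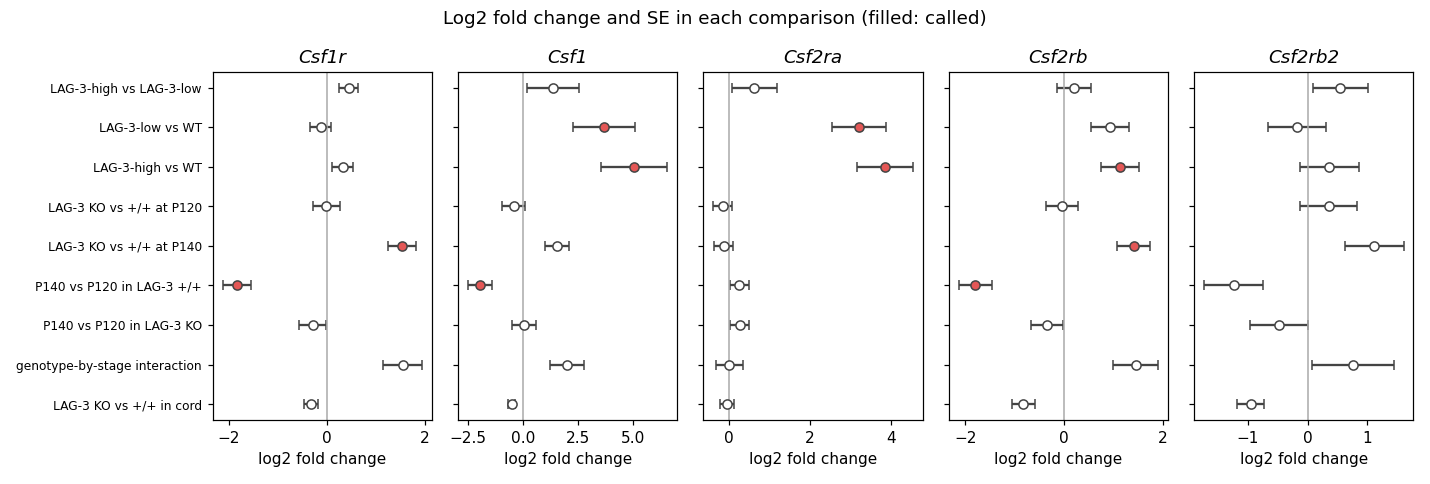
Log2 fold change of each member tested in microglia, by comparison, with bars for 1 SE and red filling where the call rule was met, where KO stands for LAG-3-/-. Csf2ra stood at 3.21 and 3.84 against WT and near 0 in the stage comparisons, and Csf1r and Csf2rb at -1.84 and -1.80 with stage in LAG-3+/+.

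In whole cord at P140, Csf1 and both beta chain genes were lower in LAG-3-/- than in LAG-3+/+ mice by adjusted p, each by less than the minimum change of 1 on the log2 scale. Csf1 was 151, 116 and 138 CPM in LAG-3+/+ and 106, 74.9 and 98.7 CPM in LAG-3-/- cord. Csf2rb was 17.8, 9.72 and 14.6 CPM against 9.15, 5.96 and 8.71 CPM, and Csf2rb2 was 12.3, 7.83 and 9.17 CPM against 5.66, 3.67 and 5.95 CPM. Every LAG-3-/- value of these 3 genes lay below every LAG-3+/+ value. The log2 differences were -0.54 ± 0.15 for Csf1 (SE, edgeR adjusted p = 0.0143), -0.83 ± 0.23 for Csf2rb (adjusted p = 0.0185) and -0.95 ± 0.23 for Csf2rb2 (adjusted p = 0.00745). Csf2rb2 passed the minimum change and was called with totals only (-1.08, adjusted p = 0.00939) and without any 1 of LAG-3+/+ replicate 2, LAG-3-/- replicate 1 or LAG-3-/- replicate 3 (-1.09, -1.03 and -1.10), and Csf2rb without LAG-3+/+ replicate 2 (-1.04, adjusted p = 0.00394). In a bulk tissue, fewer cells of a type and less RNA per cell cannot be told apart.

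Csf1r was 343, 266 and 319 CPM in LAG-3+/+ and 282, 206 and 252 CPM in LAG-3-/- cord, with overlap and a log2 difference of -0.33 ± 0.15 (edgeR adjusted p = 0.10003). Csf2ra was 38.1, 25.5 and 27.7 CPM against 34.6, 26.4 and 27.8 CPM, a log2 difference of -0.04 ± 0.16 (adjusted p = 0.863), and Il34, with the values above, differed by 0.27 ± 0.19 (adjusted p = 0.285). All 6 members were tested in cord and 0 passed both the adjusted p and the minimum change (edgeR, 4 at an unadjusted p under 0.05, 0 by DESeq2), against 7.52% of all genes. Of all 17702 genes tested in cord, 8441 had an unadjusted p under 0.05. By adjusted p alone 3 of 6 passed, against 47.1% of all genes, and 3 of 6 did not overlap, against 51.6%, so the members' shares lay near those of all genes. The summed monocyte markers were 174 to 226 CPM in LAG-3+/+ and 98.5 to 116 CPM in LAG-3-/- cord, the astrocyte markers 12774 to 14609 and 7416 to 11948 CPM and the oligodendrocyte markers 15978 to 17481 and 22713 to 31982 CPM. The endothelial markers were 129 to 137 CPM in LAG-3+/+ and 99.5 to 115 CPM in LAG-3-/- cord. Microglia markers were 969 to 1237 and 703 to 986 CPM, which overlapped, and the part of these cell types in the members' differences was not tested.

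By their sex-linked transcripts, 3 of 3 LAG-3+/+ and 1 of 3 LAG-3-/- cord libraries had Xist above Y-linked transcripts. With sex read this way as a covariate, an alternative added after seeing the data, Csf1 differed by -0.35 (adjusted p = 0.193), Csf2rb by -0.62 (adjusted p = 0.223) and Csf2rb2 by -0.79 (adjusted p = 0.0932). The sex listed for the animals in the study's sample table did not match these transcripts in 10 of 32 libraries, of which 0 were in the sort, 8 in the stage and 2 in the cord experiment. Xist lay above Y-linked transcripts in 1 of 3 P120 and 3 of 3 P140 LAG-3+/+ microglia libraries, so stage and sex were partly confounded there. With this covariate the falls with stage were -1.71 for Csf1r, -2.18 for Csf1 and -1.69 for Csf2rb (edgeR adjusted p = 0.0331, 0.0845 and 0.0416).

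**Figure D5:**
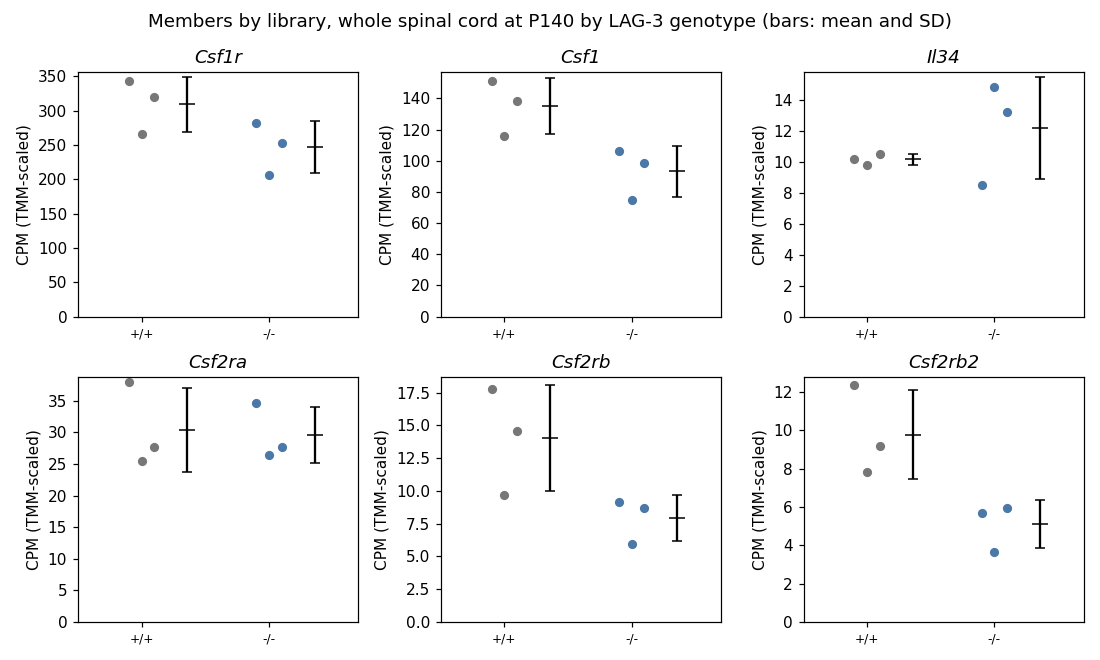
Level of each member in the 6 cord libraries, in TMM-scaled CPM, with a point per library and bars for the group mean and SD, where +/+ and -/- stand for the LAG-3 genotype. Csf1, Csf2rb and Csf2rb2 did not overlap between genotypes, and Csf1r, Il34 and Csf2ra did.

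The genes around the receptors were counted from lists. Of 22 genes that act beside or below CSF1R, 20 were tested in microglia. Between the fractions 0 were called, with a median log2 difference of 0.32 beside -0.02 for all genes. Against WT, 3 of 20 rose and 0 fell in LAG-3-low, beside 21.9% of all genes called, led by the cytoplasmic tyrosine kinases Syk (1.13 ± 0.22, edgeR adjusted p = 0.00409) and Src (2.62 ± 0.89, adjusted p = 0.0558). In LAG-3-high 3 rose and 2 fell, beside 27.0% of all genes called, and the lowest adjusted p values were those of the PI3 kinase subunit Pik3r1 (-1.37 ± 0.23, adjusted p = 0.000973) and the ubiquitin ligase Cbl (-1.82 ± 0.39, adjusted p = 0.00502), both of which fell.

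In the stage experiment, 4 of these 20 genes were higher and 0 lower in LAG-3-/- at P140, beside 10.2% of all genes called (median 0.91 beside 0.14 for all genes), led by the phospholipase Plcg2 (1.84 ± 0.27, edgeR adjusted p = 0.0172) and Cbl (1.46 ± 0.35, adjusted p = 0.0440). With stage in LAG-3+/+ 2 rose and 8 fell, beside 27.4% of all genes called (median -0.99 beside -0.22), led by Plcg2 (-2.12 ± 0.28, adjusted p = 0.00497) and the phosphatase Inpp5d (-2.07 ± 0.36, adjusted p = 0.00636). None was called between genotypes at P120, with stage in LAG-3-/-, in the interaction or in cord, where 22 were tested.

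Of 6 transcription factors known to act on Csf1r, Cebpa rose against WT in LAG-3-low (1.34 ± 0.35, edgeR adjusted p = 0.0191) as well as in LAG-3-high microglia (2.28 ± 0.36, adjusted p = 0.000661), and Irf8 rose in LAG-3-high (1.44 ± 0.22, adjusted p = 0.000533). These were all those called, 1 of 6 and 2 of 6, beside 21.9% and 27.0% of all genes. At P140, 2 of 6 were higher in LAG-3-/- than in LAG-3+/+ microglia, beside 10.2% of all genes called, Cebpa by 2.16 ± 0.55 (adjusted p = 0.0551) and Runx1 by 1.34 ± 0.39 (adjusted p = 0.0749). With stage in LAG-3+/+ 4 fell and 1 rose, beside 27.4% of all genes called, and those with the lowest adjusted p moved apart, Cebpa by -2.82 ± 0.56 (adjusted p = 0.00892) and Spi1, which encodes PU.1, by 1.12 ± 0.25 (adjusted p = 0.0123). In cord 1 of 6 was called, beside 7.52% of all genes, Runx1 (-1.12 ± 0.21, adjusted p = 0.00201).

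Of 15 genes of the beta common chain arm, which are its other ligands and alpha chains, the kinase and STATs it uses and targets of those STATs, 11 were tested in microglia. Against WT, 6 of 11 rose and 0 fell in LAG-3-low, beside 21.9% of all genes called, led by Il3ra and by the kinase Pim1 (3.93 ± 0.83, edgeR adjusted p = 0.00645), and 3 rose and 1 fell in LAG-3-high, beside 27.0%, led by Il3ra and the STAT target Socs2 (4.83 ± 0.89, adjusted p = 0.00201). From LAG-3-low to LAG-3-high 0 rose and 2 fell, beside 3.49% of all genes called, Cish, also a STAT target (adjusted p = 0.0742), and Pim1 (-2.44 ± 0.70, adjusted p = 0.0858). The neutrophil marker sum was 22845 to 66378 CPM in LAG-3-low and 3.55 to 9.67 CPM in LAG-3-high libraries. Its part in these falls was not tested. At P140, 2 were higher in LAG-3-/-, beside 10.2% of all genes called, Stat3 by 1.93 ± 0.49 (adjusted p = 0.0557) and Stat5b by 1.904 ± 0.54 (adjusted p = 0.0705). With stage in LAG-3+/+ 1 rose and 4 fell, beside 27.4% of all genes called, led by Stat5b (-2.83 ± 0.56, adjusted p = 0.00840) and Stat3 (-2.38 ± 0.50, adjusted p = 0.0105). Csf3r, the G-CSF receptor, was 0.83 ± 0.25 higher in LAG-3-/- at P140 (adjusted p = 0.0822) and changed by -0.89 ± 0.25 with stage in LAG-3+/+ (adjusted p = 0.0312). The neutrophil marker sum was 1743 to 2576 CPM in P120 LAG-3+/+, 3.92 to 3482 CPM in P140 LAG-3+/+ and 4.02 to 4618 CPM in P140 LAG-3-/- libraries. Its part in the Csf3r differences was not tested.

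Genes with the profile most like a member's were found by the root mean square difference of centred log2 CPM over libraries. Over the 14 sort libraries and 8911 candidates, Csf1 was most like Fabp5, a fatty acid binding protein (0.63 log2 units, where Csf1 itself had a root mean square of 4.33), followed by Fam20c (1.30) and Galnt6 (1.74). Csf2ra was most like Kcnj2 (0.28, itself 2.30), Atp6v0a1 (0.32) and Ttyh2 (0.39). Csf1r was most like Il10rb, an IL-10 receptor chain (0.14, itself 0.35), Tbc1d17 and Inpp5d, Csf2rb like Ube3b, Spata13 and Pmm2, and Csf2rb2 like Tmem250, Zmat2 and Yif1b.

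Over the 12 stage libraries and 8668 candidates, Csf1r was most like Cyfip1 (0.14, itself 0.85), Acss1 and Ddx42, and Csf2rb like Prkcb (0.18, itself 0.81), Cdk6 and Larp4. Csf1 was most like Stag1, Tbc1d8 and Abcb1b, Csf2ra like Slc31a1, Cd84 and Rab11b, and Csf2rb2 like Pld2, Samd9l and Zfp638. The 3 genes named for each member differed between the experiments.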

How the data were processed

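RNA-seq was measured in 32 libraries of sorted microglia (SMART-seq mRNA HT LP kit) or whole lumbar cord. Per the study's methods, the authors trimmed reads with Trim Galore 0.6.7, quantified them with Salmon 1.9.0 on GRCm39 and summed them to genes with tximport in R 4.2.1. The deposited values are estimated counts per gene, unscaled, and the annotation release is not given in the sources used here. Identifiers absent from the annotation used here held 0.0145 to 0.0514% of counts. Totals of 9403286 to 49512341 counts per library limit the precision of low genes.

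Counts were rounded, filtered with filterByExpr (minimum count 10, total 15), scaled by TMM and tested by edgeR 4.0.16 (R 4.3.3) quasi-likelihood within each table, adjusting p-values over all tested genes (Benjamini-Hochberg). A call needed an adjusted p under 0.1 and, in the sort and cord experiments, an absolute log2 fold change above 1. Scripts were tested on simulated data. Members and lists were chosen with earlier results of these data known. Members are always named, listed genes only as counts with at most 2 called per list and comparison by smallest adjusted p, and the 3 most alike genes per member among those of mean CPM of at least 10. Csf3r, the only called gene of its list, falls under the same rule. Alternatives were DESeq2 1.42.0, other scalings, filters and thresholds, sex, length and GC content (mgcv 1.9.3), neutrophil share, replicate block, the compared groups alone and leaving out each library. After seeing the data, 2 more were added, the summed beta chain genes and sex read from transcripts.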

Additional observations from a re-analysis of the deposited data

Results flagged for a closer look

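Csf1 in WT replicate 4 stood at 80.0 CPM, while the other 3 WT libraries held 0 to 0.436 CPM, so that 0.995 of the range of the group lay in that single gap. The threshold for such a gap is one that chance passes in about 1 in 20 groups. The log2 fold changes of Csf1 against WT with and without this library are given with the sort comparisons above.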

How the results depend on the processing

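Of 970 values of the members under alternatives, 850 kept their direction and side of the threshold, 32 lost and 37 gained a call and 51 changed direction. The causes of these changes were not tested.

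For the number of members called, 2 in LAG-3-low against WT became 1 with no filter, with DESeq2 (which gave Csf1 no adjusted p), at an adjusted p under 0.05 and with the compared groups alone, and 3 with length and GC content, where Csf1r (-1.42) and Csf2rb2 (-1.76) were called as falls, Csf2ra (2.51) as a rise and Csf1 was lost, and 3 by exact permutation. In LAG-3-high against WT 3 became 1 with length and GC content and with the compared groups alone. It became 2 with no filter and with DESeq2, where Csf1 was lost, and with totals only and at an adjusted p under 0.05, where Csf2rb was lost. Between the fractions 0 became 1 with the fractions alone and 4 by exact permutation. The permutation counts, here and against WT, took an unadjusted p under 0.05 with no minimum change, a looser rule than that of a call. Between the fractions Csf1r (0.46), Csf2ra (0.64) and Csf2rb2 (0.63) were counted this way while below the minimum change. With genotype at P140 2 became 0 with length and GC content or the compared groups alone, 1 with sex from transcripts, and 3 with totals only and with DESeq2. With stage in LAG-3+/+ 3 became 2 with length and GC content and 4 with totals only, DESeq2, a mean count of at least 10 and listed sex. The interaction went from 0 to 1 with no filter and 2 with DESeq2, and cord from 0 to 1 with totals only and 3 with no minimum change. Leaving out 1 library gave 1 to 2, 2 to 4 and 0 to 0 members in the 3 sort comparisons (LAG-3-low and LAG-3-high against WT, and the fractions), 0 to 0 and 0 to 4 for genotype at P120 and P140, 3 to 4 and 0 to 0 for stage in LAG-3+/+ and LAG-3-/-, 0 to 3 for the interaction and 0 to 2 in cord.

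Log2 differences that changed sign were as follows. Totals only gave Csf2rb -0.18 between the fractions, Csf1r -0.029 in LAG-3-high against WT, Csf1r 0.11 and Csf2rb 0.071 at P120, Csf2ra 0.19 at P140, Csf2ra -0.24 with stage in LAG-3+/+ and Csf1 -0.19 in LAG-3-/-. No filter gave Csf1r 0.0075 in LAG-3-low against WT. RLE size factors and DESeq2 each gave Csf1r 0.015 at P120 and Csf2ra -0.091 in the interaction. Length and GC content gave Csf2rb -0.63 in LAG-3-low, Csf1r -0.97, Csf2rb -0.42 and Csf2rb2 -1.21 in LAG-3-high against WT, Csf1r 0.11, Csf2ra 0.015 and Csf2rb 0.091 at P120, Csf1 -0.058 with stage in LAG-3-/-, and Csf2ra -0.40 and Csf2rb2 -0.044 in the interaction. The neutrophil share gave Csf2rb2 -0.28 between the fractions and 0.31 in LAG-3-low against WT, Csf1r 0.23 and Csf2rb 0.28 at P120, Csf1 -0.17 with stage in LAG-3-/- and Csf2rb2 -0.025 in the interaction. Listed sex gave Csf1 -0.014 with stage in LAG-3-/-, the compared groups alone Csf1r 0.023 at P120, and permutation Csf2rb2 0.060 in LAG-3-low against WT. Sex from transcripts gave Csf1r 0.051 and Csf2rb 0.033 at P120, and Il34 -0.25 and Csf2ra 0.19 in cord.

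Leaving out 1 library changed the sign of Csf1r (-0.28 to 0.17) and Csf2rb2 (-0.44 to 0.66) in LAG-3-low against WT, Csf1r (-0.090 to 0.13) and Csf2rb (-0.21 to 0.12) at P120, Csf1 with stage in LAG-3-/- (-0.65 to 0.47), Csf2ra in the interaction (-0.17 to 0.28) and Csf2ra in cord (-0.17 to 0.15).

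Same-numbered libraries deviated together little (correlations of -0.001 to 0.067 in the sort, -0.119 to 0.066 in the stage and -0.030 to 0.022 in the cord experiment), so numbers were not taken as pairs. Different-numbered libraries gave -0.041 to 0.035, -0.059 to 0.078 and -0.112 to 0.106. In the sort experiment the median was 0.019 for same-numbered and -0.011 for different-numbered libraries. Such correlations cannot show whether the fractions came from different animals. A replicate block called 1 member between the fractions (Csf1, 1.36, adjusted p = 0.0146). The fractions alone without a block called the same member (1.28, adjusted p = 0.00305), so the call does not show an effect of the block. With the block Csf1 was -0.044 with stage in LAG-3-/-. The block was not run against WT, nor the neutrophil share in cord.

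Over all genes, 576 calls between the fractions became 1450 with the fractions alone, 1333 with the block, 988 with DESeq2 and 70 with the neutrophil share. In LAG-3-low against WT 3614 became 1721 with the compared groups alone and 5775 with length and GC content, and in LAG-3-high 4464 became 2663 with the compared groups alone. At P140 1908 became 0 with the compared groups alone, 814 with the block, 633 with sex from transcripts, 642 at an adjusted p under 0.05 and 4281 with DESeq2. With stage in LAG-3+/+ 5118 became 2329 with sex from transcripts, and in LAG-3-/- 0 became 449 with DESeq2 and 546 with the neutrophil share. At P120 2 became 134 with DESeq2, 31 with the compared groups alone and 7 with no filter. The interaction went from 32 to 1301 with DESeq2 and 179 with no filter, 14 with RLE size factors, 9 with length and GC content, and 0 with either sex covariate, the neutrophil share or the block, and cord from 1331 to 861 with length and GC content. Leaving out 1 library gave 95 to 4140 calls at P140, 3218 to 5255 with stage in LAG-3+/+ and 0 to 1713 in the interaction. Totals only changed the share of calls that were higher from 23.4 to 5.24% between the fractions, from 70.6 to 89.4% at P140 and from 43.4 to 19.1% with stage in LAG-3+/+, from 44.8 to 31.5% in LAG-3-high against WT and from 58.1 to 36.9% in cord. In the same order, with LAG-3-low against WT (49.6%) added last, length and GC content gave 39.5, 32.6, 70.1, 24.2, 38.4 and 23.1%. RLE gave 60.4% at P140.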
